A study of Mus musculus with 16 samples.

Results

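RNA levels of 8 genes for ATP-binding cassette (ABC) efflux transporters were followed in the mouse adrenal gland: Abcb1a, Abcb1b, Abcb4, Abcc1, Abcc3, Abcc4, Abcc5 and Abcg2. They were chosen by name, with earlier results of these data known. All are genes of the ABCB, ABCC and ABCG branches known for export of drugs, lipids, conjugates and signalling molecules. They were found in the count table by Ensembl identifier. They are 8 of 54838 genes in the table, and all 8 passed the filter on low counts, with at least 38 counts in every library. RNA was taken from whole adrenals of 16 mice at the age of 4 weeks, with mixed genetic background, 1 library per mouse, in 4 groups of 4. The groups were control females, females with a gain of function (GOF) of Rspo1, control males and males with the same GOF. The product of Rspo1, R-spondin 1, is a secreted enhancer of WNT signals. The promoter or cell type that drives Rspo1 in the GOF mice, and the alleles the controls carry, are not given in the sources used here. The series asks how gene expression in the adrenal depends on sex in control and GOF animals.

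ABC transporters use ATP to move molecules across membranes. Abcb1a and Abcb1b are the rodent gene pair for P-glycoprotein, the multidrug export pump, for which humans have a single gene; Abcb1b is the copy known from the rodent adrenal cortex, and P-glycoprotein can carry steroids such as corticosterone. Abcb4, next to them on the chromosome, encodes the phosphatidylcholine floppase of bile. The Abcc genes encode multidrug resistance-associated proteins, which export glutathione, glucuronide and sulfate conjugates or cyclic nucleotides. Abcg2 encodes the breast cancer resistance protein, which exports urate, sulfate conjugates and many drugs and lies in capillary endothelium of several organs.

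The ABCB members form a cluster on chromosome 5 of the GRCm38 build, all on the plus strand, in the GENCODE M21 annotation. Abcb1a (ENSMUSG00000040584) spans chr5:8660077-8748575, Abcb1b (ENSMUSG00000028970) chr5:8798147-8866315 and Abcb4 (ENSMUSG00000042476) chr5:8893717-8959231, with gaps of 49571 and 27401 bases between neighbours. Because Abcb1a and Abcb1b are near copies, the sequence they share bears on which gene a read is counted for. The longest identical run between the transcripts Abcb1a-201 (4997 bases) and Abcb1b-201 (4306 bases) is 338 bases long and coding in both, at bases 1509 to 1846 and 1476 to 1813. A stretch of 150 bases from it, the length of a read, is printed from GENCODE M21, at bases 1663 to 1812 of Abcb1a-201 and 1630 to 1779 of Abcb1b-201. Capitals mark the 15 bases that code for the ABC signature motif, a stretch shared by the ATP-binding domains of ABC transporters, found in frame by translation.
Shared by Abcb1a and Abcb1b: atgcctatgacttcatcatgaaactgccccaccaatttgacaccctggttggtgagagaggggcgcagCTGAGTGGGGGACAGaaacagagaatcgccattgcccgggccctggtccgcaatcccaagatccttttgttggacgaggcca
Of all windows of 150 bases in the Abcb1a transcript, 4.41% also occur in that of Abcb1b, and 5.15% of the Abcb1b windows occur in Abcb1a. The longest runs shared with Abcb4 are shorter than a read, at 110 bases for Abcb1a and 98 for Abcb1b, and no window of 150 bases is shared with it. How reads with several matches were counted is not given in the sources used here. The other members lie on other chromosomes: Abcc1 (ENSMUSG00000023088) at chr16:14361558-14475737 and Abcc5 (ENSMUSG00000022822) at chr16:20331303-20426394, Abcc3 (ENSMUSG00000020865) at chr11:94343295-94392997, Abcc4 (ENSMUSG00000032849) at chr14:118482692-118706219 and Abcg2 (ENSMUSG00000029802) at chr6:58584523-58695676.

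The upstream sequence of Abcb1b is shown because this gene carries the largest fall among the 8. RefSeq (GRCm38.p6) and GENCODE M21 place its start at the same base. The 250 bases before it, on the plus strand at chr5:8797897-8798146, read as follows, with capitals on matches, on either strand, to the CCAAT box and to the GC box (letters GGGCGG), which do not overlap each other.
Abcb1b upstream: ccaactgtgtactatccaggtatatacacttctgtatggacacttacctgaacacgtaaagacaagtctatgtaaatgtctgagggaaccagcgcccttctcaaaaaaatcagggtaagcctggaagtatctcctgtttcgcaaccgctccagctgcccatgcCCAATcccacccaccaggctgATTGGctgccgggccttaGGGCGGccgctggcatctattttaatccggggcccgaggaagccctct
The CCAAT box matches begin at -87 (plus strand) and -66 (minus strand) and the GC box match at -48 relative to the start. Over 27025 RefSeq promoter windows of 300 bases (250 before to 50 after the start), 37.9% hold a CCAAT match and 35.9% a GC box match on either strand. The same window of Abcb1b holds no match on either strand to the TCF/LEF motif ATCAAAG, found in 3.72% of all windows. Nor does it hold the motif of steroidogenic factor 1, CAAGGNCA, found in 6.67%, or the TATA box, spelled TATAAA, found in 14.2%. These matches are descriptions of letters. For Abcb1a, the RefSeq start lies 92986 bases upstream of the GENCODE M21 gene start, so its RefSeq window is not compared here.

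Levels are CPM, counts per 1e6 counts after TMM scaling of the library totals, which lay between 31275146 and 43003968. Rspo1 was at 14.8 ± 17.4 CPM in female controls, 458 ± 80.2 in female GOF, 30.5 ± 12.6 in male controls and 805 ± 201 in male GOF (SD, n = 4). The cortical transcripts Star and Cyp11a1 were at 4085 CPM or more in all 16 libraries. Some control libraries held transcripts of neighbouring organs: 15 liver genes summed to 10768 CPM in Male control 2 against at most 794 elsewhere, and 12 kidney tubule genes to 1230 CPM in Female control 1 and 207 in Female control 3 against at most 4.04 elsewhere. Each call on the 8 genes is therefore also given without these 3 libraries where it changes. That fit keeps 2 female and 3 male control libraries. Where a call is lost in it, smaller groups and removed organ transcripts cannot be told apart. The medulla list (8 genes) summed to 4775 to 11465 CPM in controls and 198 to 883 in GOF, and 2 X-zone genes to 4910 to 7358 CPM in female controls and at most 3.25 in any other library. Of 7 adipocyte markers 6 fell with GOF in females and 7 in males, and of 6 capsule markers 6 fell in each sex. Of all tested genes 20.6% fell in females and 21.8% in males. In whole glands, fewer cells of a type and less RNA per cell cannot be told apart.

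Compared per length, Abcb1b stood far above the other members. Its mean FPKM (fragments per kilobase of transcript and 1e6 fragments) over the 16 libraries was 1713, with a range of 647 to 2636. Abcc5 followed at 55.2 FPKM, then Abcg2 at 27.1, Abcb1a at 20.5, Abcc1 at 16.5, Abcc4 at 14.3, Abcc3 at 7.24 and Abcb4 at 1.35. This order is of means over groups that differ. In female GOF Abcb1a (26.0 FPKM) stood above Abcg2 (21.3), in female controls below it (13.7 against 26.9), and Abcc3 ran from 2.28 FPKM in female controls to 14.01 in male GOF. Abcb1b, Abcc5 and Abcb4 held the first, second and last place in each group. The authors' FPKM used the mean transcript length of each gene. Scaling by the longest transcript instead left Abcb1b, Abcc5, Abcb1a, Abcc1, Abcc3 and Abcb4 at their ranks, but moved Abcg2 from rank 3 to 6 and Abcc4 from rank 6 to 3.

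**Figure D1:**
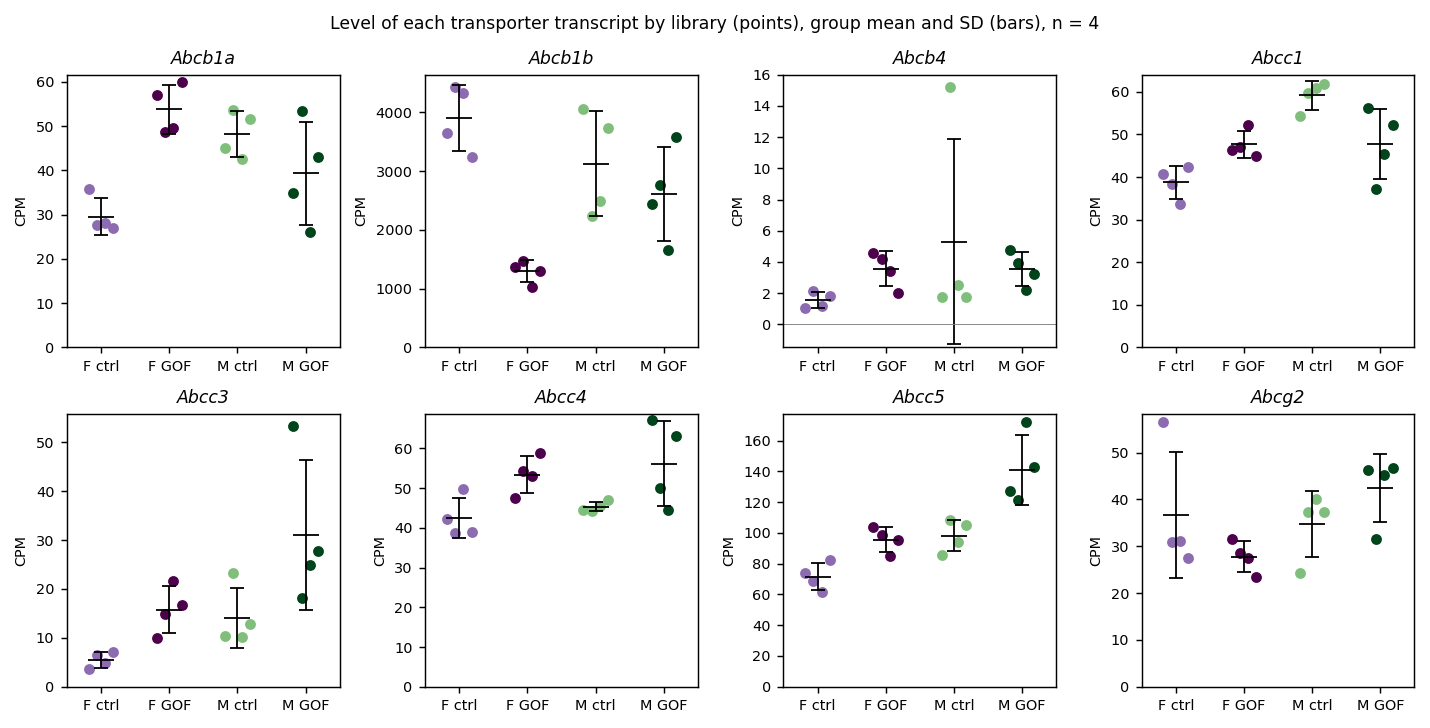
CPM (vertical axes, linear) of the 8 transporter genes in each library (points) by sex and genotype, with group means and SD (bars, n = 4). Abcb1b was lowest in all 4 female GOF libraries (1037 to 1474 CPM), Abcb1a had its lowest group mean in female controls (26.9 to 35.7 CPM, a range that male GOF overlaps), and the high point of Abcb4 is Male control 2 (15.2 CPM).

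Abcb1b, the main P-glycoprotein gene of this tissue, fell 3.02-fold in female GOF adrenals, while the male groups overlapped. In female controls it was at 3646, 4427, 4325 and 3247 CPM, and in female GOF at 1365, 1474, 1037 and 1302 CPM. Every female GOF library lay below every other library of the study. Male controls had 4054, 2244, 2494 and 3727 CPM, and male GOF had 2437, 2768, 1661 and 3584 CPM. Both male groups spread widely and covered much the same range. On the log2 scale GOF changed it by -1.60 (SE 0.23) in females (edgeR quasi-likelihood test, adjusted p = 9.9e-05) and -0.26 in males (95% interval -0.74 to 0.22; adjusted p = 0.389). The female change kept its call in all 16 fits that left out a library, between -1.70 and -1.53, and was -1.57 without the 3 libraries with liver or kidney transcripts.

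Among GOF mice, males had 2.02-fold more Abcb1b RNA than females (log2 1.01, SE 0.23; edgeR adjusted p = 0.0038), and the groups did not overlap. Between control males and females the log2 difference was -0.32 (95% interval -0.80 to 0.16; adjusted p = 0.322). The difference between the male and the female GOF effect was itself tested as the interaction, 1.33 (SE 0.32; edgeR adjusted p = 0.0314). This call was lost in 7 of 16 fits without a library, without Female control 2 or 3, Female GOF 3 or 4, Male control 2 or 3 or Male GOF 4, and the value over the 16 fits ran from 1.17 to 1.52. It was 1.17 without the 3 libraries (edgeR adjusted p = 0.176). X-zone transcripts were high in female controls alone, and Abcb1b was at 2244 to 4054 CPM in male controls, where the X-zone genes summed to at most 3.25 CPM. Medulla transcripts were low in both GOF groups. Their part in the Abcb1b result was not tested.

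The numbers in the sample titles fall into 4 ranges, which the labels do not call batches. Within ranges that hold both groups, Abcb1b gave log2 ratios of GOF over control in females of -1.42 (1 library against 1) and -1.67 (2 against 3). In males the ratios were -0.17 (2 against 3) and -0.51 (2 against 1). The male over female ratio among GOF mice was 0.93 (2 against 1). Only the first range holds both sexes, with 1 female library per genotype, so sex and range are largely confounded. A sex difference lost with range as covariate cannot be assigned to either. With the range as a covariate, which leaves Female GOF 4 without weight as the only library of its range, the difference between GOF males and females was 0.95 (edgeR adjusted p = 0.145) and the interaction 1.30 (adjusted p = 0.0956).

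Abcb1a, the other P-glycoprotein gene, rose 1.82-fold in female GOF adrenals, against the direction of Abcb1b. Its levels were 35.7, 27.6, 28.0 and 26.9 CPM in female controls and 57.1, 48.8, 49.6 and 59.9 CPM in female GOF. The groups did not overlap (log2 0.86, SE 0.17; edgeR adjusted p = 0.0012). Male controls, with 45.1, 53.7, 42.7 and 51.6 CPM, all lay above the female controls (log2 0.71, SE 0.17; adjusted p = 0.0090). Male GOF libraries, with 34.9, 53.4, 26.1 and 42.95 CPM, overlapped the male controls (log2 -0.30, 95% interval -0.66 to 0.07; adjusted p = 0.188). The male effect moved with single libraries, to -0.50 without Male GOF 2 (edgeR adjusted p = 0.025) and -0.16 without Male GOF 3 (adjusted p = 0.441). GOF males against GOF females gave -0.45 (SE 0.17; edgeR adjusted p = 0.0581), with overlap. This difference passed with DESeq2 (-0.44; adjusted p = 0.044) and without Male GOF 2 (-0.63; edgeR adjusted p = 0.0081), and was -0.29 without Male GOF 3. The interaction was -1.16 (SE 0.24; edgeR adjusted p = 0.0164). It held in every fit that left out a library and had an adjusted p of 0.0694 without the 3 libraries. The sex difference in controls had an edgeR adjusted p of 0.0558 without them, at 0.77, and 0.185 with title range as covariate, at 0.53.

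Reads of the run shared by both genes could be counted for either. Abcb1a made up 0.764% ± 0.165 of the summed counts of the pair in female controls, 4.04% ± 0.607 in female GOF, 1.62% ± 0.534 in male controls and 1.51% ± 0.296 in male GOF (SD, n = 4). In females Abcb1a rose as Abcb1b fell. The log2 ratio of Abcb1a to Abcb1b was -7.05 ± 0.31 in female controls, -4.58 ± 0.24 in female GOF, -5.98 ± 0.47 in male controls and -6.05 ± 0.29 in male GOF. In 2-sided exact permutation tests the ratio differed between female GOF and control, between the control sexes and between the GOF sexes with p = 0.0286 each, the smallest that 4 against 4 libraries allow, and 0.0381 after Benjamini-Hochberg adjustment over 4 comparisons. In males the exact permutation test of GOF against control gave p = 0.8. The share of shared reads in either count was not tested. Antisense genes overlap exons of both, Gm5106 those of Abcb1b and Gm42686 those of Abcb1a, with at most 35 and 27 counts in any library.

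Measured by FPKM, Abcb1b alone held most of the ABC transporter RNA. Of the summed FPKM of 49 ABC genes it made up 78.7% ± 2.73 in female controls, 57.3% ± 3.57 in female GOF, 72.3% ± 6.84 in male controls and 69.4% ± 6.41 in male GOF (SD, n = 4). Among all genes it ranked between 18 and 20 by FPKM in female controls and between 46 and 97 in female GOF. In males it ranked between 15 and 31 in controls and between 12 and 35 in GOF. The other 7 members together summed to 105 ± 14.03 FPKM in female controls and 139 ± 4.53 in female GOF, and to 140 ± 16.8 in male controls and 184 ± 18.3 in male GOF.

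**Figure D2:**
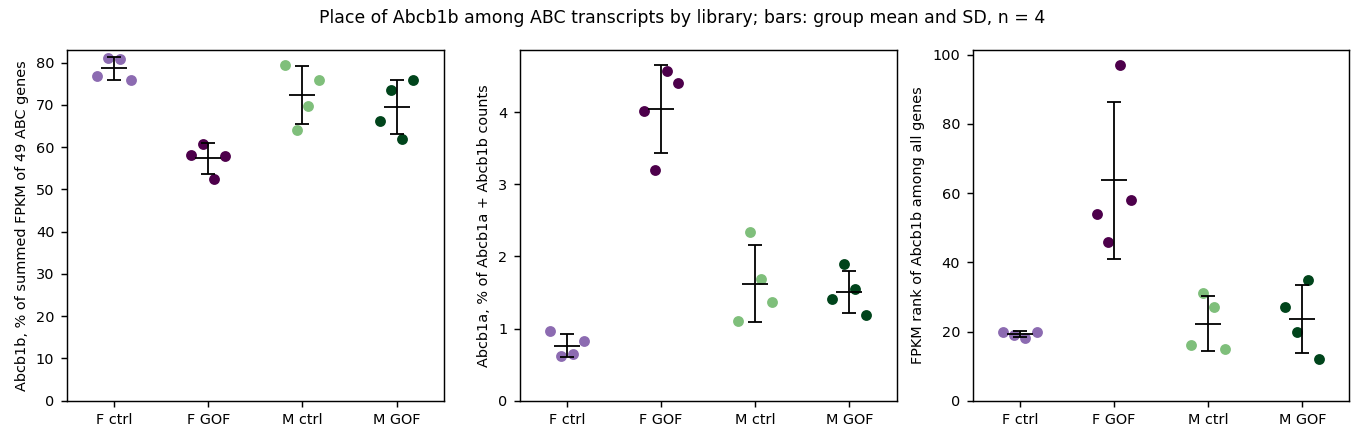
Per library (points; bars are group mean and SD, n = 4): Abcb1b as a percent of the summed FPKM of 49 ABC genes, Abcb1a as a percent of the counts of Abcb1a and Abcb1b together, and the FPKM rank of Abcb1b among all genes, where 1 would be the highest. Female GOF stands apart in all 3 panels, with 57.3% ± 3.57 of the FPKM, 4.04% ± 0.607 of the pair's counts and ranks between 46 and 97.

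Abcb4, the phosphatidylcholine floppase, was scarce, and its sex difference rested on a single library. It was at 1.05, 2.13, 1.17 and 1.85 CPM in female controls and at 4.59, 4.19, 3.43 and 2.03 CPM in female GOF, groups that overlapped at 1 library. Male controls were at 1.75, 15.2, 2.53 and 1.77 CPM and male GOF at 4.77, 3.94, 2.23 and 3.26 CPM. The value of 15.2 CPM belongs to Male control 2, the library with 10768 CPM of liver transcripts. The GOF effect in females was 2.30-fold and did not pass the test (95% interval -0.10 to 2.498 on the log2 scale; edgeR adjusted p = 0.132). It passed at nearly the same size without Male control 2, which belongs to neither group (adjusted p = 0.0084), and in a fit of the female groups alone (log2 1.17; adjusted p = 0.019), but not without the 3 libraries (0.84; adjusted p = 0.122). Control males against females gave 1.78 (SE 0.61, edgeR adjusted p = 0.049), which became 0.38 without Male control 2 and 0.02 without the 3 libraries. With title range as covariate the difference was 2.08 (edgeR adjusted p = 0.169). The call was lost in 13 of 16 fits without a library. In males the GOF effect was -0.58 with Male control 2 and 0.81 without it, neither of which passed the test.

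Abcc3, an exporter of glucuronides and bile salts, rose with GOF in both sexes by the largest factor among the 8. Female controls had 3.53, 6.39, 4.93 and 7.10 CPM and female GOF had 10.03, 14.9, 21.5 and 16.6 CPM. Male controls had 10.3, 23.2, 10.1 and 12.8 CPM and male GOF had 53.3, 18.1, 24.8 and 27.8 CPM. The female groups did not overlap, and all female controls lay below all other libraries. The rise was 2.88-fold in females (log2 1.52, SE 0.36; edgeR adjusted p = 0.0043) and 2.197-fold in males (log2 1.14, SE 0.36; adjusted p = 0.0216). The male rise was lost in 3 of 16 fits, without Male control 1, Male control 3 or Male GOF 1, and was 0.72 (adjusted p = 0.095) without Male GOF 1, the highest library. Both rises passed without the 3 libraries, at 1.22 in females and 1.48 in males. Control males exceeded control females 2.57-fold (log2 1.36, SE 0.36; edgeR adjusted p = 0.015), which became log2 1.02 without Male control 2 (adjusted p = 0.0507) and 0.71 without the 3 libraries (adjusted p = 0.318). GOF males against GOF females gave 0.97 (SE 0.35; edgeR adjusted p = 0.0506). That difference passed without the 3 libraries (adjusted p = 0.0318) and in 4 of 16 fits without a library, but was 0.59 without Male GOF 1 (adjusted p = 0.199). It also passed with DESeq2 (adjusted p = 0.018), and in edgeR with RLE (0.048) or upper-quartile factors (0.034) and at least 10 counts (0.036). By limma on log2 of FPKM plus 1 or 0.1 it passed too (0.036 and 0.041). Without a filter, with only those groups or with title range as covariate it did not pass. The interaction was -0.39 (95% interval -1.46 to 0.68; adjusted p = 0.704).

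Among 10 macrophage markers, 2 rose and 1 fell with GOF in females, beside 19.0% and 20.6% of all genes. In males 5 rose and 1 fell, beside 15.2% and 21.8%. Males exceeded females in 7 markers among controls, beside 13.5% of all genes, and in 7 among GOF mice, beside 13.3%. The 10 had a summed level between 211 and 331 CPM in female controls and between 275 and 644.6 in female GOF, and between 357 and 489 in male controls and 516 and 1590 in male GOF, and none was at 0 in a whole group. Male GOF 1 had both the highest macrophage sum (1590 CPM) and the highest Abcc3 (53.3 CPM). The sums of the female groups overlapped, where Abcc3 did not. Their part in the Abcc3 result was not tested.

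Abcc5, an exporter of cyclic GMP and nucleotide analogues, rose with GOF in both sexes and was higher in males at both genotypes in the fit without a range term. Its levels were 73.9, 68.8, 61.8 and 82.1 CPM in female controls, 104, 98.4, 85.1 and 95.1 in female GOF, 85.9, 108, 93.9 and 105 in male controls and 127, 121, 172 and 143 in male GOF. None of these 4 pairs of groups overlapped. GOF raised it by 0.42 (SE 0.12) on the log2 scale in females (edgeR adjusted p = 0.0106) and by 0.52 (SE 0.12) in males (adjusted p = 0.0028). Males exceeded females by 0.46 (SE 0.12) among controls (adjusted p = 0.0114) and by 0.56 (SE 0.12) among GOF mice (adjusted p = 0.0022). Each of these calls held in all 16 fits without a library. With title range as covariate both GOF calls held, but the sex difference was 0.31 in controls (edgeR adjusted p = 0.222) and 0.34 in GOF mice (adjusted p = 0.210). Without the 3 libraries the female GOF effect was 0.34 (adjusted p = 0.102) and the sex difference in controls 0.33 (adjusted p = 0.200), and the other pair of calls held. The interaction was 0.10 (95% interval -0.25 to 0.45; edgeR adjusted p = 0.769).

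Abcc1, an exporter of glutathione conjugates and leukotriene C4, moved in opposite directions in the sexes by small amounts. Female controls had 40.8, 38.4, 33.6 and 42.2 CPM and female GOF 46.4, 47.2, 52.1 and 44.9 CPM, without overlap. Male controls had 54.2, 59.7, 60.99 and 61.8 CPM and male GOF 56.2, 37.3, 45.3 and 52.2 CPM, with overlap. It rose by 0.30 (SE 0.11) in females (edgeR adjusted p = 0.0421) and fell by 0.31 (SE 0.11) in males (adjusted p = 0.0374), and the interaction was -0.61 (SE 0.16; adjusted p = 0.0392). Leaving out a library ended the female call in 11 of 16 fits, the male call in 5 and the interaction in 11. The female call and the interaction were also lost with RLE or upper-quartile factors, without a filter and with at least 10 counts in every library. With RLE factors the edgeR adjusted p was 0.0547 for the female effect and 0.0532 for the interaction. The male call was lost with upper-quartile factors and without a filter. On log2 of FPKM plus 1 the male effect (-0.20, limma adjusted p = 0.166) and the interaction (-0.53, 0.0711) did not pass. DESeq2 kept all 3 calls. Without the 3 libraries none of these 3 passed, with values of 0.24, -0.31 and -0.55. Control males exceeded control females by 0.61 (SE 0.11; edgeR adjusted p = 0.0012), a call that held in every fit without a library and without the 3 together (adjusted p = 0.0376), but not with title range as covariate (0.59; adjusted p = 0.0514). That covariate also ended the calls of the female effect, the male effect and the interaction (edgeR adjusted p of 0.0679, 0.0592 and 0.0812). Their values with it were 0.33, -0.33 and -0.65. GOF males and females differed by 0.0030 (95% interval -0.23 to 0.24).

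Abcc4, an exporter of cyclic nucleotides and prostaglandins, passed the test for GOF in females and lay near its threshold in males, with changes of like size. It had 42.1, 38.8, 49.6 and 39.0 CPM in female controls and 47.4, 54.3, 53.1 and 58.8 CPM in female GOF, where Female control 3 overlapped the GOF range. Male controls were close together at 44.6, 44.3, 45.6 and 46.9 CPM, and male GOF spread over 67.2, 49.98, 44.5 and 63.0 CPM. The log2 change was 0.33 (SE 0.12) in females (edgeR adjusted p = 0.0368) and 0.31 (SE 0.12) in males (adjusted p = 0.053). The female call was lost in 8 of 16 fits without a library, where the 16 values ran from 0.24 to 0.42, and with title range as covariate (0.29; edgeR adjusted p = 0.118), without a filter (adjusted p = 0.093) and with at least 10 counts in every library (0.086). The male change was 0.19 without Male GOF 1 (adjusted p = 0.215) and 0.29 without the 3 libraries (adjusted p = 0.114). It passed under 7 of the other settings, among them DESeq2 (adjusted p = 0.029), upper-quartile factors (0.015) and limma on log2 of FPKM plus 1 (0.012). The interaction was -0.02 (95% interval -0.38 to 0.33). The sexes differed by 0.10 (95% interval -0.16 to 0.35) in controls and by 0.07 (95% interval -0.18 to 0.33) in GOF, neither of which passed.

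Abcg2, the urate and sulfate conjugate exporter, did not pass the test for GOF in either sex. Female controls had 56.6, 30.99, 31.2 and 27.5 CPM and female GOF 31.5, 28.7, 27.5 and 23.5 CPM, while male controls had 24.3, 37.4, 40.2 and 37.3 CPM and male GOF 46.3, 31.5, 45.2 and 46.6 CPM. The value of 56.6 CPM belongs to Female control 1, the library with 1230 CPM of kidney tubule transcripts. The GOF effect was -0.40 in females (95% interval -0.86 to 0.06; edgeR adjusted p = 0.160), or -0.11 without that library, and 0.29 in males (95% interval -0.17 to 0.75; adjusted p = 0.318). Among GOF mice, males exceeded females by 0.61 (SE 0.22; edgeR adjusted p = 0.0454). The lowest male GOF library and the highest female GOF library both round to 31.5 CPM, and the call was lost in 11 of 16 fits without a library. With title range as covariate the difference was 0.035 (edgeR adjusted p = 0.961). Control males and females differed by -0.07 (95% interval -0.53 to 0.39), and the interaction was 0.68 (SE 0.31; edgeR adjusted p = 0.226). The 10 endothelial markers summed to 994 to 1268 CPM in male GOF and 702 to 797 in female GOF. Of them 8 were higher in male GOF, beside 13.3% of all genes. The part of these markers in the Abcg2 difference was not tested.

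**Figure D3:**
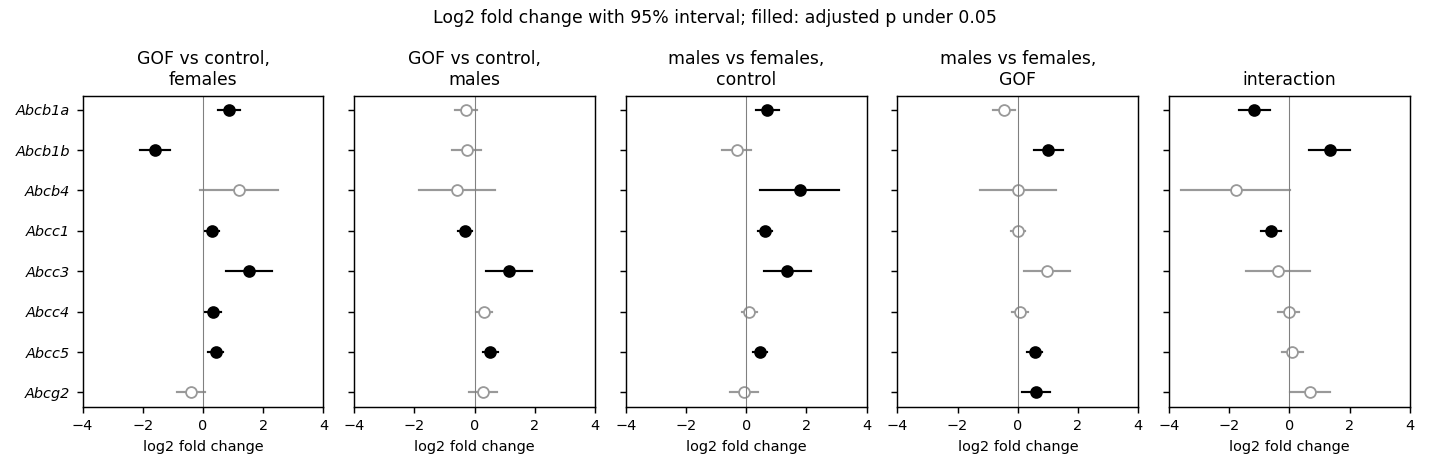
Log2 fold change (horizontal axes) of the 8 genes with 95% intervals in 5 contrasts, where a filled point has an edgeR adjusted p under 0.05 and an open point does not. Abcb1b lies far to the left for GOF in females (-1.60), and Abcb1a (-1.16), Abcb1b (1.33) and Abcc1 (-0.61) are filled for the interaction, which is the male minus the female GOF effect.

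Counted together, 6 of the 8 members passed the edgeR test for GOF in females, where 39.6% of 18214 tested genes did: 5 were higher, as were 19.0% of all genes, and 1 was lower, as were 20.6%. For GOF in males 3 passed, beside 36.9% of all genes, of which 2 were higher (15.2% of all) and 1 lower (21.8%). Between the control sexes 5 passed, beside 23.4% of all genes, all 5 higher in males (13.5% of all were higher and 9.89% lower). Between the GOF sexes 3 passed, beside 29.6%, all 3 higher in males (13.3% of all were higher and 16.3% lower). The interaction was called for 3, beside 4.21% of all genes, with 1 above 0 (1.59% of all) and 2 below (2.61%). Groups did not overlap for 5 members in females (37.8% of all genes), 1 in males (33.1%), 4 between control sexes (25.3%) and 3 between GOF sexes (29.1%). The median log2 change of the 8 was 0.37 in females and 0.01 in males, beside 0.05 and 0.01 over all tested genes. For males over females it was 0.53 in controls and 0.32 in GOF, beside 0.08 and 0.03. In the fit without the 3 libraries, with 2 female and 3 male controls left, fewer genes passed, of 18935 tested. There 4 members passed in females (Abcb1a, Abcb1b, Abcc3 and Abcc4), beside 24.1% of all genes, and 2 in males (Abcc3 and Abcc5), beside 25.7%. Between control sexes 1 passed (Abcc1), beside 8.7%, and between GOF sexes 4, beside 27.3%. For the interaction edgeR called 0 of the 8, beside 0.924% of all genes, and 3 had an unadjusted p under 0.05. The 8 were chosen with earlier results of these data known, so these counts are no independent evidence.

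Other ABC transporter genes were counted from a list of 41, of which 28 were tested. By level, Abca1, the cholesterol exporter, led with a mean of 417 CPM, and Abca2 followed with 119 CPM. With GOF in females 3 rose and 11 fell, where 19.0% of all genes rose and 20.6% fell, led by Abcg3 (log2 1.85; edgeR adjusted p = 0.00062) and by Abcc2 (-5.06; adjusted p = 0.0447). Abcc2, the conjugate exporter of liver and kidney, was at 16.8 CPM in Female control 1 and 2.12 in Female control 3, the libraries with kidney transcripts, and at 0.09 to 0.21 in the other females. Without those and Male control 2 its change was 0.19, and 2 of the list rose and 8 fell in females, and 2 rose and 7 fell in males. With GOF in males 3 rose and 8 fell, beside 15.2% and 21.8% of all genes, led by Abcg3 (1.55; adjusted p = 0.0020) and Abcc6 (-3.98; adjusted p = 0.0213), the latter at 8.13 CPM in Male control 2, at most 0.33 in the other males, and changed by -0.32 without Male control 2.

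Males exceeded females in 8 of these genes and fell below in 3 among controls, beside 13.5% and 9.89% of all genes, and in 8 and 2 among GOF mice, beside 13.3% and 16.3%. Abca6 led the higher genes in controls (2.35, edgeR adjusted p = 0.0057). Its level was 40.3 CPM in Male control 2, the library with the most liver transcripts, and 9.97, 11.5 and 14.2 CPM in the other male controls. Female controls had 6.17, 2.03, 1.63 and 5.02 CPM. Of the list only 1 gene was higher and 1 lower between control sexes without the 3 libraries, and 11 and 2 between GOF sexes. Abcc8, a subunit of ATP-sensitive potassium channels, was higher in GOF males than GOF females (2.97; adjusted p = 0.0093) and Abca4 lower (-1.37; adjusted p = 0.0213). The interaction was called for Abcb10 alone, a mitochondrial transporter (-0.59; edgeR adjusted p = 0.0183; 0.175 without the 3 libraries), and by DESeq2 for Abca5 and Abcd4 too. The median change of the 28 was -0.29 with GOF in females and -0.10 in males.

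**Figure D4:**
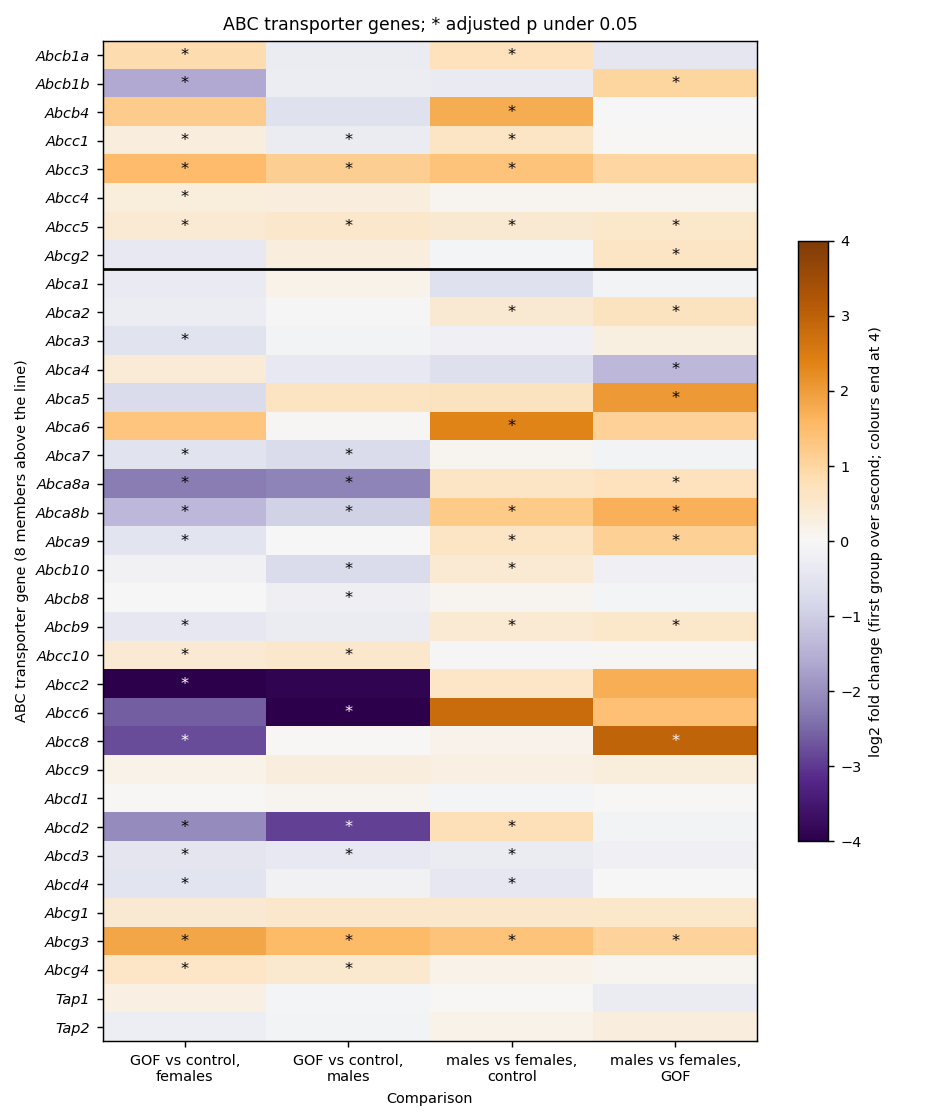
Log2 fold change (colour, orange for higher and purple for lower in the group named before "vs") of the 8 members, above the line, and 27 of the 28 other tested ABC genes in 4 comparisons, where a star marks an edgeR adjusted p under 0.05. In the GOF columns Abcc3, Abcc5 and Abcg3 are orange with stars in both sexes, while Abca8a, Abca8b and Abcd2 are purple with stars.

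Regulators of efflux transporter genes, mostly transcription factors, were followed as a list of 12, with 10 tested. The highest levels were those of Nr1h2 (121 CPM), an oxysterol receptor, and Nfe2l2 (119 CPM), the oxidative stress factor. The xenobiotic receptor genes Nr1i2 and Nr1i3 did not pass the filter. With GOF in females 2 rose and 2 fell, beside the same 19.0% and 20.6% of all genes, led by Ahr, the dioxin receptor (0.64; edgeR adjusted p = 0.0102), and Ppara, the fatty acid receptor (-1.23; adjusted p = 0.0056). In males also 2 rose and 2 fell, beside 15.2% and 21.8% of all genes. They were led by Nr1h4, the bile acid receptor (0.70, edgeR adjusted p = 0.0017), and Ppara (-1.85, adjusted p = 0.00031). Between the sexes 1 was higher and 1 lower in male controls, beside 13.5% and 9.89% of all genes. These were Nr1h3 (0.67, edgeR adjusted p = 0.0029) and Nr1h4 (-0.94, adjusted p = 0.00040). Among GOF mice 2 were higher and 2 lower in males, beside 13.3% and 16.3% of all genes. They were led by Nr1h3 (0.68, edgeR adjusted p = 0.0017) and Ahr (-0.56, adjusted p = 0.0254). The interaction was called for Nr1h4 (1.05; edgeR adjusted p = 0.0114), and not without the 3 libraries (adjusted p = 0.122), where 1 of the list rose and 2 fell with GOF in each sex.

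Solute carriers that move organic ions, prostaglandins and nucleosides, often the counterparts of efflux pumps, were a list of 20 with 17 tested. The nucleoside carrier Slc29a1 (98.4 CPM) and Slc22a17 (65.5 CPM) had the highest means. With GOF 2 rose and 7 fell in females, beside 19.0% and 20.6% of all genes. In males 0 rose by edgeR or DESeq2 and 7 fell, beside 15.2% and 21.8%. Without the 3 libraries 2 rose and 6 fell in females and 6 fell in males. In females the largest rise was that of Slco2b1 (1.17; edgeR adjusted p = 0.0234), which was lost in 5 of 16 fits without a library. The largest fall was fitted for Slc22a2, a kidney carrier at 9.94 and 2.34 CPM in the libraries with kidney transcripts and at most 0.11 CPM in the other females, whose call was lost without the 3 libraries. In males the largest fall was that of Slc22a3, a carrier of organic cations and catecholamines (-3.51; edgeR adjusted p = 1.6e-05), which fell in females too (-2.45; adjusted p = 0.00029). Medulla markers fell in both GOF groups as well, 8 of 8 in each sex, and their part in the change of Slc22a3 was not tested. Control males were higher than control females for Slc22a17 alone (0.66, edgeR adjusted p = 0.0014, or 0.063 without the 3 libraries), beside 13.5% of all genes. Among GOF mice 3 were higher and 1 lower in males, beside 13.3% and 16.3% of all genes. They were led by Slco3a1 (0.74, edgeR adjusted p = 0.0072) and Slco2b1 (-1.76, adjusted p = 0.0031). The interaction was called for 0 of the 17 by edgeR and 0 by DESeq2, and 3 had an unadjusted edgeR p under 0.05.

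The genes most like each member over the 16 libraries were taken by the root mean square difference of log2 CPM centred on each gene's mean, among 13514 genes. For Abcb1b these were Tbc1d8 (difference 0.36), Acox3 (0.36) and Slc16a10 (0.38), where the median gene differed by 0.76. Tbc1d8 had mean levels of 23.3 CPM in female controls, 6.39 in female GOF, 19.5 in male controls and 17.2 in male GOF. For Abcb1a they were Zfp39 (0.21), Cd82 (0.24) and Fut10 (0.25), with a median of 0.49. For Abcc1 they were Wdr35 (0.12), Pfkm (0.13) and Arsa (0.13), with a median of 0.40. For Abcc3 they were Ms4a7 (0.41), Igsf6 (0.43) and Vipr1 (0.44), with a median of 1.02. Abcc5 had the closest match, Upp2 (0.09), followed by Tyw5 (0.13) and Ip6k2 (0.14), with a median of 0.48. Upp2 ran from 12.9 CPM in female controls through 17.9 in female GOF and 18.0 in male controls to 27.8 in male GOF. These likenesses describe 16 libraries that share the 4 groups, and carry no test.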

How the data were processed

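Adrenal RNA of 16 mice, 4 per sex and genotype, was sequenced as paired 150 bp reads after a RNA integrity cut-off of 7.0, per the labels' protocols. The submitters' processing notes name Bowtie2 2.2.3, TopHat2 2.0.12, HTSeq 0.6.1 and DESeq 1.18.0; the genome build, strand setting and treatment of reads with several matches are not given in the sources used here. The deposited counts are whole numbers per Ensembl gene without normalization. The FPKM values deposited by the authors scale counts to library total and gene length, which equalled the mean GENCODE M21 transcript length within 0.5% for 96.8% of 18718 genes. Of 54838 identifiers 54809 were in GENCODE M21 (GRCm38), which gave symbols and coordinates; sequences came from it and from RefSeq. The members and gene lists were chosen with earlier results of these data known, so no list is independent evidence.

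Groups came from the labels, and replicate numbers follow accession order. The lowest chi-square per degree of freedom over 24 pairs of libraries of a group was 26.8, so none was taken as a copy. Counts of 18214 genes kept by filterByExpr went into edgeR 4.0.16, with its robust quasi-likelihood fit (R 4.3.3, TMM factors, 1 model with a mean per group), with Benjamini-Hochberg adjustment over all tested genes and a threshold of 0.05. Standard errors are the fold change over the root of F. Alternatives used DESeq2 1.42.0, limma 3.58.1 on log2 of FPKM plus 1 or 0.1, other scalings and filters, a range covariate and each library left out. All members are named; of each list the largest change in each direction per contrast and the 2 highest levels are named, and 3 genes most like each member called in 2 or more contrasts. For 1 gene of the lists the result is not reported here. On simulated data for GOF in females with 17920 genes and 200 changed, 54.2% of those changed 2-fold and 77.8% of those changed 4-fold were recovered, 4.44% of calls were unchanged genes, and 0 calls were made with none changed. Figures used Python 3.11.15 and matplotlib 3.10.9.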

Additional observations from a re-analysis of the deposited data

Results flagged for a closer look

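In 4 of the 32 sets of 4 libraries examined, 1 library stood apart from the other 3 of its group by Dixon's gap test at the 95% level; chance marks about 1 in 20 such sets. Abcb1a was at 35.7 CPM and Abcg2 at 56.6 CPM in Female control 1, the library with the most kidney tubule transcripts. Abcb4 was at 15.2 CPM in Male control 2, the library with the most liver transcripts. Abcg2 was at 31.5 CPM in Male GOF 2, below the other male GOF libraries, and the difference between GOF males and females was 0.74 without it (log2), against 0.61 with it.

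The GOF effect differed between the sexes by the interaction test for 3 members. The male minus female effect was 1.33 on the log2 scale for Abcb1b, which fell in females, -1.16 for Abcb1a, which rose in females, and -0.61 for Abcc1, which rose in females and fell in males. None of these 3 passed without the 3 libraries that hold liver or kidney transcripts (edgeR adjusted p of 0.176, 0.0694 and 0.218), where their values were 1.17, -1.23 and -0.55. That fit kept 2 female and 3 male controls, and smaller groups and removed organ transcripts cannot be told apart in it.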

How the results depend on the processing

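Of 432 member values under other settings, 338 kept their direction and side of the threshold, 53 lost a call, 16 gained one and 25 changed sign; of 640 with a library left out, 543, 70, 9 and 18 did. Abcb1b in females kept its call throughout. Without the 3 libraries (chosen after seeing the data), genes called numbered 4554 for GOF in females (7217 before), 1648 between control sexes (4267) and 175 for the interaction (766), and members 1 between control sexes and 0 for the interaction; Abcb4 with GOF in males became 0.81, Abcg2 between control sexes 0.21, Abcc1 between GOF sexes -0.0017 and the Abcc3 interaction 0.26. With title range as covariate, 1311, 1336 and 442 genes and 1, 0 and 1 members were called between control sexes, between GOF sexes and for the interaction; Abcb4 between GOF sexes was 0.47, Abcc1 -0.066 and the Abcc4 interaction 0.029. With a log2 change of at least 1 also required, 3121, 3366, 1405, 1814 and 381 genes passed in the 5 contrasts, and 2, 1, 2 and 1 members in the first 4. DESeq2 called 1434 genes for the interaction and 5 members between GOF sexes. Without a filter the interaction was called for 408 genes (407 on FPKM) and 1 member in each. Values near 0 changed sign: Abcb4 between GOF sexes was 0.010 with DESeq2, 0.0099 with RLE, 0.049 with upper-quartile factors, 0.0092 without a filter, 0.023 with at least 10 counts, and 0.039, 0.070 and 0.039 on FPKM plus 1, plus 0.1 and unfiltered; the Abcc4 interaction was 0.016, 0.016, 0.074, 0.027, 0.053, 0.013, 0.010 and 0.013 in the same order; Abcc1 between GOF sexes was -0.0049 with only those groups; Abcb4 with GOF in males was 0.13 on FPKM plus 0.1. The cause was not tested. The share of higher calls differed between settings, of which FPKM also changes the test and filter and a fit of fewer groups the libraries and filter. For GOF in males it went from 41.1% to 51.2% with upper-quartile factors, 61.3% on FPKM plus 1 and 34.7% without the 3 libraries. For GOF in females it went from 48.0% to 60.7% on FPKM, 38.6% without a filter and 36.7% without the 3 libraries. Between control sexes it went from 57.8% to 49.9% with upper-quartile factors, 46.6% with only those groups and 44.7% without the 3 libraries. Between GOF sexes it went from 44.9% to 55.2%, and for the interaction from 37.9% to 62.6%, both with upper-quartile factors. The median gene shifted by at most 0.11. Leaving out each library gave 5709 to 7466, 5215 to 6711, 2650 to 4881 (fewest without Female control 3), 4243 to 5660 and 377 to 953 (fewest without Female control 3) genes in the 5 contrasts, and 4 to 7, 1 to 4, 3 to 5, 2 to 5 and 1 to 3 members; Abcb4 with GOF in males ran from -0.87 to 0.81, Abcg2 between control sexes from -0.19 to 0.22, Abcb4, Abcc1 and Abcc4 between GOF sexes from -0.19 to 0.18, -0.078 to 0.12 and -0.017 to 0.19, and the Abcc4 interaction from -0.11 to 0.10. The planned removal of every library over 100 CPM of liver or kidney transcripts was not run, since it leaves no control. No paired analysis was possible because the labels give no replicate numbers.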
